A study of Mus musculus with 4 samples.

Results

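The probes of chromosome 9 were examined along the length of the chromosome in 4 mouse liver tumours measured by array comparative genomic hybridization. All probes that were not controls and that the array design placed on chromosome 9 of the mouse build mm9 were taken, 8375 of 169093 placed probes and 5.26% of the 159076 autosomal probes. They run from position 3088282 to position 124046785, cover 121.0 Mb with a median spacing of 9892 bp, and leave no gap wider than 0.285 Mb. A gene name stood beside 5529 of them, for 1266 different names.

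Tumour DNA came from 1 liver tumour each of 4 Trp53-/- mice (tumours 1 to 4), on the C57BL/6J background and untreated, whose livers had lost Trp53 (it encodes the tumour suppressor p53). The reference was spleen DNA pooled from 3 sex-matched littermates, and the labels give it the genotype Trp53-/- and male sex as well, as they do for every tumour. The reference tissue is spleen in most labels and liver in the protocol for dye labelling. Neither the promoter behind the liver-specific loss nor the age of the mice is given in the sources used here. Tumour DNA carried Cy5 and spleen DNA carried Cy3 on all 4 arrays, and tumours 1 and 2 shared 1 slide while tumours 3 and 4 shared the other.

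In this assay both DNAs compete for the same oligonucleotides, so the log2 ratio of the dyes gives the copy number of the tumour relative to the reference. In a diploid genome a loss of 1 of 2 copies in every cell gives a log2 ratio of -1, and any admixed cell with both copies brings the ratio closer to 0. Mouse chromosomes are acrocentric, so the low coordinates lie next to the centromere and the whole probed length is 1 arm. Loss or gain of whole chromosomes is a common form of genome change in tumours that lack p53. Every ratio below was centred on the median autosomal probe of its array. With 1 group of 4 tumours, an exact sign-flip permutation test against 0 (two-sided) cannot give a p below 0.13, so none of these tests can pass 0.05. No array compared spleen DNA with spleen DNA, so the spread of the reference was not measured on its own. Any difference in reference DNA between the arrays is part of the ratios.

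Both sex chromosomes went against the labels on 2 of the arrays. The X signal of the tumour channel, as a mean log2 level over the autosomes, was -0.89, -0.93, -0.89 and -0.068 on arrays 1 to 4, and that of the spleen channel was -0.071, -0.89, -0.90 and -0.91. The Y signal was -1.16, -0.75, -0.93 and -3.10 in the tumour channel and -3.38, -0.68, -0.74 and -0.76 in the spleen channel. The spleen channel of array 1 and the tumour channel of array 4 thus had a high X and a low Y level, while the other 6 channels had a low X and a higher Y level. Over all probes the log2 ratios of arrays 1 and 4 had a Pearson correlation of -0.611, and over autosomal probes alone it was 0.182. The labels state the dyes, so the direction was kept, and values without tumours 1 and 4 are given beside the results. Whether the shift of chromosome 9 differs with the sex of the DNA was not tested.

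The chromosome 9 oligonucleotides are 45 to 60 bases long and AT-rich, with a mean GC content of 36.5%, inside the range of 36.3% to 36.7% over the autosomes. A set of 6 examples shows the span of base composition along which the ratios of chromosome 9 are split below. They are the first 60-base probes of the proximal and of the distal stretch that hold 20, 22 or 23 G or C bases, the 10th, 50th and 90th percentiles. G and C are in capitals, each sequence is printed 5′ to 3′ as the array design lists it, and positions are in mm9.
Proximal, 20 G or C, chr9:3095620-3095679: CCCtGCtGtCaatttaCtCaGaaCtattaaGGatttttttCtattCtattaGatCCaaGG
Distal, 20 G or C, chr9:84044992-84045051: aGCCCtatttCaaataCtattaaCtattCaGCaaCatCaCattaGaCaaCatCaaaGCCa
Proximal, 22 G or C, chr9:3110501-3110560: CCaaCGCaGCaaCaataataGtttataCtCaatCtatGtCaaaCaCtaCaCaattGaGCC
Distal, 22 G or C, in Ttk, chr9:83761797-83761856: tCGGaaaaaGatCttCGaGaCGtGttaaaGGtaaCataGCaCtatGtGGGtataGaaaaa
Proximal, 23 G or C, chr9:3088282-3088341: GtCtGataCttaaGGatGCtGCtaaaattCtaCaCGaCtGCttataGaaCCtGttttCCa
Distal, 23 G or C, chr9:83800343-83800402: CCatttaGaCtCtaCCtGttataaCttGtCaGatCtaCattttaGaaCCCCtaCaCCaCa
A single probe says little about copy number. The distal probe in Ttk, a mitotic checkpoint kinase gene, read -0.042, -0.25, -0.087 and -0.47 in tumours 1 to 4, and the distal probe with 23 G or C bases read -0.0012, 0.069, 0.12 and -0.18, so neighbouring probes could lie further apart than the shift of the chromosome.

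The mean log2 ratio of chromosome 9 was -0.17 in tumour 1, -0.0031 in tumour 2, -0.12 in tumour 3 and -0.20 in tumour 4. Tumours 1, 3 and 4 were low and tumour 2 was at 0. The mean over tumours was -0.12 ± 0.086 (SD, n = 4). It was below 0 in every tumour, 4 of 4, with an exact sign-flip p of 0.13, the lowest this design allows. Without tumours 1 and 4 the mean was -0.062, with an exact sign-flip p of 0.5, the lowest that 2 tumours allow. The median over probes was -0.18, 0.0089, -0.11 and -0.19 in tumours 1 to 4, which put tumour 2 above 0 (exact sign-flip p = 0.25).

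Chromosome 9 was the lowest of the 19 autosomes in tumours 1, 3 and 4 and the 15th from the lowest in tumour 2. In tumour 1 it lay below the lowest of the 16 autosomes other than 9, 12 and 15, chromosome 17 at -0.074. In tumour 3 the lowest of those 16 was chromosome 13 at -0.043, and in tumour 4 it was chromosome 11 at -0.023. In tumour 2 chromosome 10 was the lowest of them at -0.093, and their range of -0.093 to 0.020 held the chromosome 9 mean. The difference of chromosome 9 from all other autosomes together was -0.18, 0.0097, -0.11 and -0.20 in tumours 1 to 4 (mean -0.12, exact sign-flip p = 0.25; below 0 in 3 of 4 tumours), and -0.051 on average without tumours 1 and 4.

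**Figure D1:**
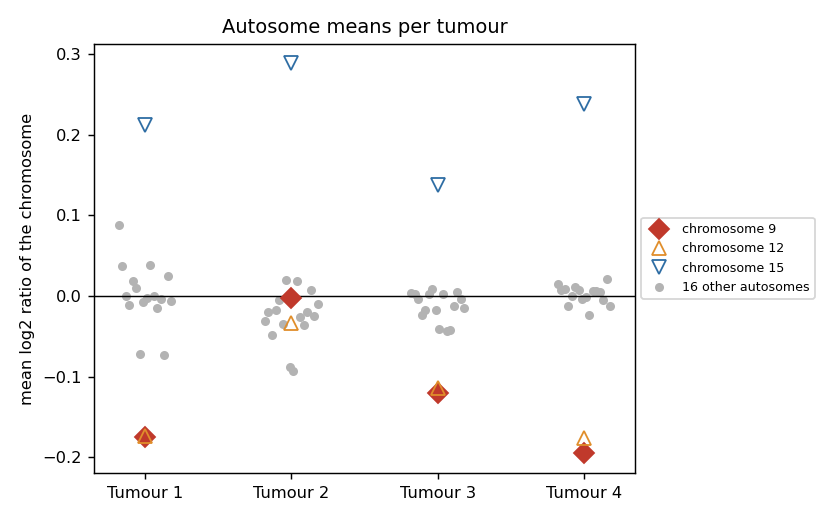
Mean log2 ratio of tumour over spleen DNA (vertical axis) of every autosome in each of the 4 tumours; the diamond is chromosome 9, the triangles are chromosomes 12 and 15, and grey points are the other 16 autosomes. Chromosome 9 lies below all 16 grey points in tumours 1, 3 and 4 and among them in tumour 2.

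Chromosome 12 was the autosome most like chromosome 9. It read -0.17, -0.034, -0.11 and -0.18 in tumours 1 to 4 and ranked 2nd from the lowest in tumours 1, 3 and 4. Chromosome 9 minus chromosome 12 was -0.0017, 0.031, -0.0062 and -0.020, averaging 0.00075 ± 0.021 (SD, n = 4) with an exact sign-flip p of 1, so the sign differed between tumours. Chromosome 15 went the other way, at 0.21, 0.29, 0.14 and 0.24. Tumour 2, with no shift of chromosome 9, had the highest chromosome 15 value of the 4 as processed. With intensity, probe GC and regional GC trends removed in 1 model, chromosome 15 read 0.240 in tumour 2 and 0.237 in tumour 4. With normexp background correction tumour 1 was the highest, at 0.320 against 0.313 in tumour 2.

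The low signal of chromosome 9 lay in the tumour channel. Its mean log2 signal over chromosome 9, relative to all autosomes of the channel, was -0.18, 0.0078, -0.11 and -0.19 on arrays 1 to 4. In the spleen channel the same quantity was -0.014, -0.0014, -0.0036 and -0.0031. The spleen channel varied over arrays with an SD of 0.0055, smaller than the tumour channel's 0.093. Nearly all chromosome 9 spots were well above background in both channels, from 99.3% to 100% in the tumour channel and from 99.3% to 100% in the spleen channel.

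**Figure D2:**
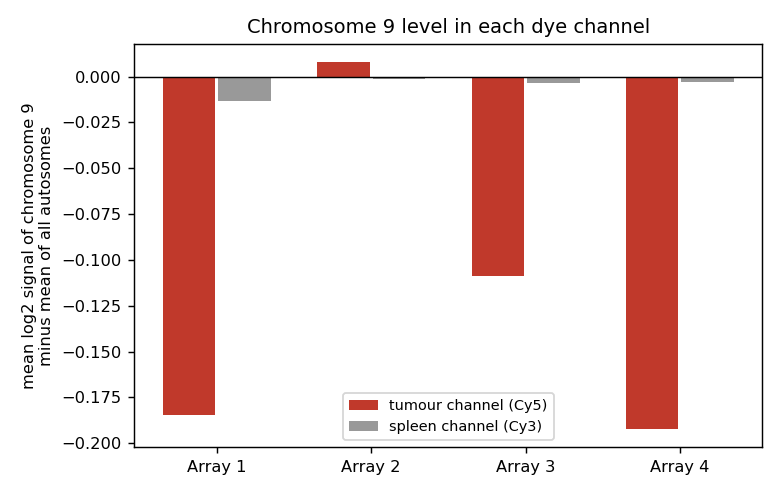
Mean log2 signal of chromosome 9 minus the mean of all autosomes (vertical axis) in the tumour channel (red, left bar) and the spleen channel (grey, right bar) of each array. The tumour channel is at -0.18, 0.0078, -0.11 and -0.19, and no spleen bar goes below -0.014.

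Probe by probe, 90.1% of the chromosome 9 probes were below 0 in tumour 1, 49.0% in tumour 2, 78.8% in tumour 3 and 88.6% in tumour 4. Of the probes of the other 16 autosomes, 47.6%, 51.3%, 48.3% and 47.7% were below 0. In tumour 1 the 10th and 90th percentiles on chromosome 9 were -0.34 and -0.00052, against -0.16 and 0.17 on the other 16 autosomes. In tumour 4 they were -0.41 and 0.012, against -0.20 and 0.20. Both ends of the probe distribution were therefore lower on chromosome 9 in these tumours. In tumour 2 they were -0.50 and 0.48, against -0.52 and 0.45, which is as wide as on the other autosomes and wider than in any of the other 3 tumours. The SD of the noise between neighbouring probes was 0.120, 0.366, 0.145 and 0.153, and the header of array 2 marked its derivative log ratio spread (0.358) as out of range.

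The low ratio was spread over the length of the chromosome. It was divided into a proximal, a middle and a distal stretch of equal length. Tumour 1 read -0.18, -0.18 and -0.17 in these stretches, and tumour 3 read -0.12 in each of them. Tumour 4 read -0.18, -0.20 and -0.21, lowest in the distal stretch, and tumour 2 read -0.032, 0.0039 and 0.018, highest there. The distal minus the proximal stretch was 0.010, 0.050, -0.0016 and -0.033 (mean 0.0064 ± 0.034, SD, n = 4; exact sign-flip p = 0.75). Its sign differed between tumours. Probes with a gene name minus probes without one differed by 0.0090, 0.033, 0.0039 and -0.016 (exact sign-flip p = 0.625). Every odd-numbered and every even-numbered probe gave -0.18 and -0.17 in tumour 1, -0.011 and 0.0049 in tumour 2, -0.12 and -0.12 in tumour 3 and -0.20 and -0.19 in tumour 4.

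In 5 Mb bins, of which chromosome 9 has 25 with 148 to 532 probes each, all 25 bins were below 0 in tumours 1, 3 and 4 and 13 of 25 in tumour 2. Of all 502 autosomal bins, 48.6% were below 0 in tumour 1, 66.5% in tumour 2, 67.3% in tumour 3 and 47.2% in tumour 4. The bins ran from -0.20 to -0.13 in tumour 1, from -0.14 to 0.079 in tumour 2, from -0.15 to -0.090 in tumour 3 and from -0.23 to -0.14 in tumour 4. No bin of tumours 1, 3 and 4 reached 0, and no bin stood for a full loss of 1 copy. Below 0 in all 4 tumours were 13 of the 25 bins, against 16.5% of all autosomal bins. Since the other tumours were below 0 in all 25, this count is that of tumour 2 alone. In tumour 2 the share of all autosomal bins below 0 was 66.5%, so tumour 2 was not low on chromosome 9 by this count. At or below -0.05 in tumours 1, 3 and 4 were 25 of 25 chromosome 9 bins and 24 of 25 chromosome 12 bins, which make up all 49 such bins (9.76% of 502); this threshold and the setting aside of tumour 2 were chosen with the values known.

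**Figure D3:**
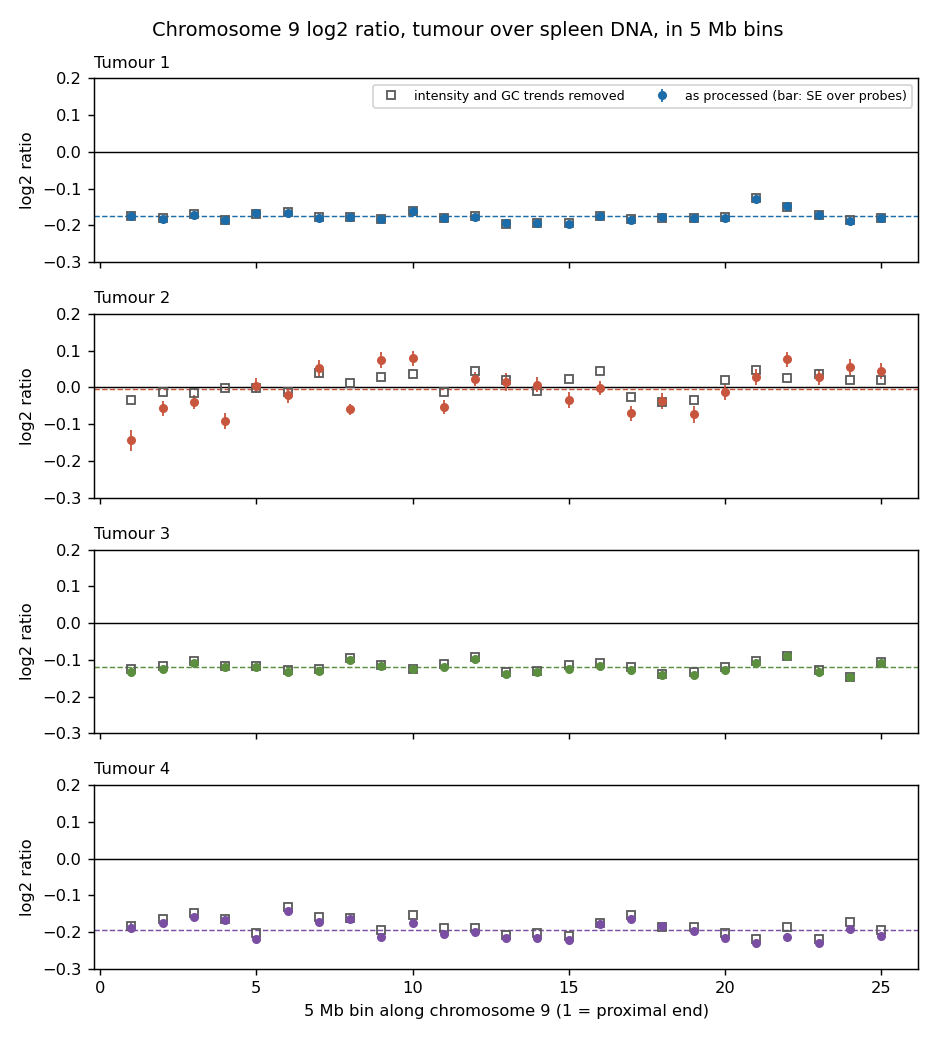
Mean log2 ratio (vertical axis) of the 25 bins of 5 Mb from the proximal end (1) to the distal end (25), 1 panel per tumour; filled points are the values as processed with the SE over probes, open squares the values with intensity and GC trends removed, and the dashed line is the chromosome mean. The bins of tumours 1, 3 and 4 stay between -0.23 and -0.090, and those of tumour 2 lie on both sides of 0.

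The spread of the bins was close to that of other autosomes. The SD over the 25 bins was 0.015, 0.058, 0.014 and 0.025 in tumours 1 to 4. The median SD of such bins over the other autosomes was 0.015, 0.059, 0.013 and 0.031, and chromosome 9 ranked 9th, 10th, 13th and 5th of 19 from the most even. The SE that probe noise gives a bin averaged 0.0078, 0.021, 0.0089 and 0.0096, below the SD over bins in each tumour. As a description, the bins of the odd and of the even probes had a Pearson correlation of 0.63, 0.82, 0.35 and 0.86 over 25 bins, which share the array. Between tumours the bins had correlations of -0.37 to 0.47.

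Limma was fitted across all autosomal bins, with an intercept over the 4 tumours and Benjamini-Hochberg adjustment over 502 bins. At an adjusted p under 0.05 it called 14 of the 25 chromosome 9 bins lower and none higher. The called bins were the 13 in which tumour 2 was below 0 and the bin from 65014195 to 69984613, where tumour 2 read 0.0070. Tumours 1, 3 and 4 were below 0 in called and uncalled bins alike. The calls thus followed the values of tumour 2 and do not mark where the other tumours were low. Of all autosomal bins it called 33 of 502 lower, or 6.57%. Chromosome 12 had more called bins than chromosome 9, with 19 of its 25 lower. The most proximal bin (3088282 to 4991294) was the lowest, at -0.18, -0.14, -0.13 and -0.19 in tumours 1 to 4, a mean of -0.16 ± 0.026 (SD, n = 4; limma adjusted p = 0.00108). It is also the bin in which tumour 2 was lowest, and its probes had the lowest mean log2 intensity of the 25 bins, 9.78. With intensity, probe GC and regional GC trends removed in 1 model, this bin read -0.17, -0.033, -0.13 and -0.18. Another bin was then the lowest in tumour 2, at -0.039. The highest bin was at 105012560 to 109987577, at -0.15, 0.077, -0.090 and -0.21, a mean of -0.093 (limma adjusted p = 0.359). It holds the most gene names of any chromosome 9 bin, 127, and has the highest mean probe GC of them, 37.1%. With the trends removed in the same way, it read 0.025 in tumour 2. The count of called bins changed with each tumour. Without tumour 2 limma called 25 of 25 chromosome 9 bins lower, against 9.76% of all autosomal bins. Without tumour 1 it called 1 bin, without tumour 3 it called 4, without tumour 4 it called 7, and without tumours 1 and 4 it called 1. With the sign of tumour 1 or of tumour 4 turned, limma called 0 bins lower and 0 had an unadjusted p under 0.05, whereas with the signs as labelled 24 of 25 had one. With the sign of tumour 1 turned the mean of the chromosome was -0.036, and with that of tumour 4 turned it was -0.026. Turning the sign of a tumour with a low ratio shrinks the mean by arithmetic. These counts and means therefore cannot tell which sign is right.

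Base composition moved with the bins in tumour 2. As a description over the 25 bins, which share the array and its probes, the Pearson correlation of the bin value with the bin's mean probe GC was 0.23, 0.84, 0.058 and -0.32 in tumours 1 to 4. Probes with fewer than 22 G or C bases of 60 (2558 probes) read -0.19, -0.13, -0.14 and -0.23 in tumours 1 to 4. Probes with 22 (3310 probes) read -0.18, 0.0036, -0.12 and -0.19. Probes with more than 22 (2507 probes) read -0.15, 0.12, -0.11 and -0.17. In tumours 1, 3 and 4 every class stayed below 0, and in tumour 2 the classes lay on both sides of 0. The GC-rich minus the GC-poor class was 0.037, 0.24, 0.026 and 0.057 and above 0 in 4 of 4 tumours, with an exact sign-flip p of 0.13. The intensity of a probe also moved with its ratio: the brightest minus the dimmest of 3 equal classes was 0.042, 0.50, 0.066 and 0.16. Intensity is the mean of the same log2 signals whose difference is the ratio. Noise in either channel moves both, so these classes are not independent of the ratio. In tumour 2 the dimmest class read -0.25 and the brightest 0.25.

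**Figure D4:**
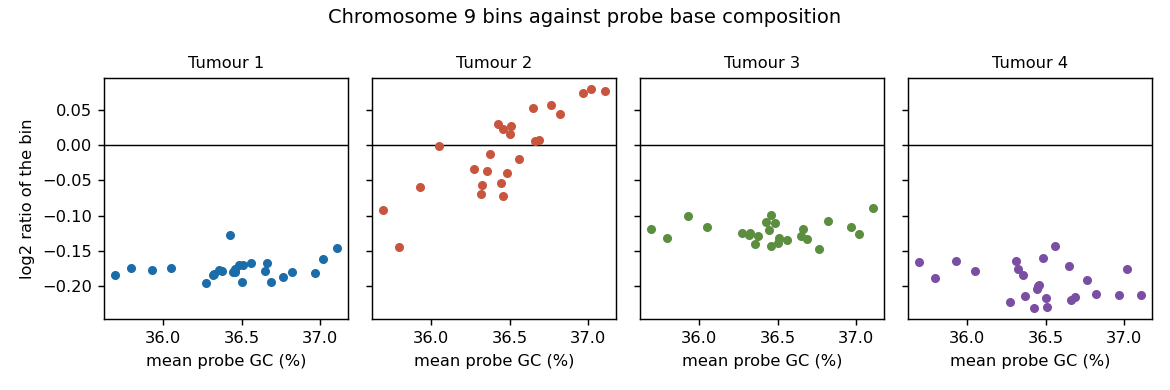
Log2 ratio of each 5 Mb bin of chromosome 9 (vertical axis) against the mean GC content of its probes in percent (horizontal axis), 1 panel per tumour with 25 points each. The points of tumours 1, 3 and 4 stay below 0 at every GC content, and those of tumour 2 span -0.14 to 0.079, lower at low GC and higher at high GC.

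Removing the trends left the shift in place in tumours 1, 3 and 4. With a trend on intensity, fitted without chromosomes 9, 12 and 15, taken out, chromosome 9 read -0.17, 0.018, -0.12 and -0.18 in tumours 1 to 4. With a trend on probe GC taken out it read -0.18, -0.0054, -0.12 and -0.20, and with a trend on the GC of neighbouring probes -0.17, -0.0086, -0.12 and -0.20. With intensity, probe GC and regional GC in 1 model it read -0.17, 0.011, -0.12 and -0.18. Tumour 2 thus lay between -0.0086 and 0.018 and changed sign with the setting. The same model brought the SD over bins to 0.027 in tumour 2, against 0.058 as processed, and its correlation with bin GC to 0.30. In the other 3 tumours the SD over bins was then 0.014, 0.014 and 0.023. All 25 bins stayed below 0 in tumours 1, 3 and 4 under each of these settings, and 10 to 16 bins did in tumour 2.

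Set against a loss of 1 of 2 copies, the shift was a fraction of the step. If all other autosomes had 2 copies and the ratio were not compressed, the means would stand for 1 copy in 22.8% of the genomes in tumour 1, 0.435% in tumour 2, 16.1% in tumour 3 and 25.3% in tumour 4 (mean 16.2% ± 11.2, SD, n = 4). That is 1.77, 2.0, 1.84 and 1.75 copies per genome. With the 3 trends removed in 1 model the percentages were 22.8%, -1.59%, 15.4% and 23.8%. A negative value has no meaning as a share of genomes and marks a ratio above 0. With normexp background correction in place of the processed signals they were 30.6%, 3.67%, 20.9% and 30.3%. Without tumours 1 and 4 the mean was 8.26%.

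A measured step was at hand on arrays 1 and 4, where X differed between the channels. The chromosome 9 shift was 21.2% of the X difference on array 1 and 23.2% on array 4, and with that difference as the step the shares were 26.3% and 28.7%. For chromosome 12 the share of genomes with 1 copy came to 22.6%, 4.62%, 15.3% and 22.9%. For chromosome 15 the share with 3 copies came to 31.6%, 44.3%, 20.1% and 35.9%, the largest of the 3 shares in each tumour. A loss in some tumour cells, a loss in all tumour cells diluted by normal cells, and a genome with other than 2 copies elsewhere cannot be told apart from these means.

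Each array was divided into segments of equal ratio by penalised least squares. The longest chromosome 9 segment was 97.2 Mb at -0.18 in tumour 1, 100.2 Mb at -0.017 in tumour 2, 66.3 Mb at -0.12 in tumour 3 and 32.4 Mb at -0.21 in tumour 4. Segments at or below -0.1 held 99.9% of the chromosome 9 probes in tumour 1, 0% in tumour 2, 100% in tumours 3 and 4 (1 probe of tumour 3 was its own segment above 0). Tumour 2 had a single change point, with the 1604 most distal probes at 0.055. Called as lost at a threshold of -0.2 was 45.3% of the chromosome in tumour 4 and 0% in the other 3 tumours, against 3.97% of the autosomal length in tumour 4. The calls in tumour 4 were 20133191 to 22455984 (2.32 Mb at -0.26, with 76 gene names from Olfr18 to Bbs9), 40611600 to 72971178 (32.4 Mb at -0.21, 404 names) and the distal 20.1 Mb up to the last probe (at -0.22, 311 names). Its uncalled segments of at least 5 probes lay between -0.20 and -0.15, so the threshold divided a narrow range. With the intensity trend (fitted without chromosomes 9, 12 and 15) removed, 15.6% was called lost in tumour 4, at a threshold of 0.3 it was 0.053%, and with the penalty factor at 6 it was 69.2%. At a threshold of 0.1 the length called lost was 99.9% in tumour 1, 0% in tumour 2 and 100% in tumours 3 and 4.

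By gene, 796 chromosome 9 genes had at least 2 probes. Their median log2 ratio, with each gene averaged over the 4 tumours, was -0.12, against -0.0083 over all 13389 autosomal genes tested. No gene passed limma with Benjamini-Hochberg adjustment at 0.05 in either direction, on chromosome 9 or elsewhere (0% called); the lowest adjusted p was 0.0783. At an unadjusted p under 0.05, 360 chromosome 9 genes were lower (45.2%), against 11.0% of all autosomal genes, and 1 was higher. Below 0 in all 4 tumours were 358 of the 796 (45.0%), against 16.8% of all, and below 0 in tumours 1, 3 and 4 were 711 (89.3%), against 24.7%. By tumour, 97.6%, 46.6%, 92.0% and 97.6% of the chromosome 9 genes were below 0, against 48.2%, 50.3%, 55.3% and 57.2% of all autosomal genes. Without tumour 2 limma called 375 of them lower at an adjusted p under 0.05, against 5.57% of all autosomal genes. Tumour 2 is the tumour without the shift, and it was set aside with the values known. With tumour 1, tumour 3 or tumour 4 left out instead, limma called 0. Without tumours 1 and 4 limma called 0, with 94 at an unadjusted p under 0.05.

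Genes of the chromosome were grouped into 4 lists of known function. Of all 796 tested chromosome 9 genes 45.2% were lower at an unadjusted p under 0.05, against 11.0% of all autosomal genes. The median of the chromosome 9 genes was -0.12. Below 0 in tumours 1, 3 and 4 were 89.3% of the tested chromosome 9 genes, against 24.7% of all autosomal genes. List counts of this kind and list medians below also include genes with 1 probe. Whether a list differs from the rest of the chromosome was not tested. Of the hepatocyte metabolism list, 15 of 19 genes were found on chromosome 9 and 8 had at least 2 probes. None passed the adjusted test, and 6 of the 8 were lower at an unadjusted p under 0.05. Below 0 in tumours 1, 3 and 4 were 12 of the 15, against 89.3% of all tested chromosome 9 genes, and the median was -0.19. Lipc, the hepatic lipase gene (70646102 to 70782567, 12 probes), read -0.20, -0.064, -0.22 and -0.37 in tumours 1 to 4, a mean of -0.21 ± 0.13 (SD, n = 4; limma adjusted p = 0.119). It was below 0 in all 4 tumours, and furthest in tumour 4. Cyp1a1, a cytochrome P450 of xenobiotic metabolism (57539439 to 57547035, 3 probes), read -0.086, -0.25, -0.17 and -0.39. Gsta4, a glutathione S-transferase gene (78042441 to 78051513, 3 probes), read -0.10, -0.31, -0.23 and -0.21. Neither followed the order of the chromosome means, since tumour 2 was lower than tumour 1 in both. Me1, the cytosolic malic enzyme gene (86476500 to 86577565, 12 probes), read -0.12, -0.028, -0.085 and -0.15. Aqp9, a hepatic aquaglyceroporin gene (70959313 to 70998363, 5 probes), read -0.23, 0.094, 0.012 and -0.17, with tumours 2 and 3 above 0.

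Of the DNA damage and chromatin list, 15 of 16 genes were found and 12 had at least 2 probes. None passed the adjusted test. At an unadjusted p under 0.05, 8 of the 12 were lower, against 45.2% of all tested chromosome 9 genes. Below 0 in tumours 1, 3 and 4 were 15 of 15, against 89.3% of all tested chromosome 9 genes, and the median was -0.18. Atm, which encodes a kinase that signals DNA double-strand breaks to p53 (53247408 to 53321303, 10 probes), read -0.20, -0.19, -0.13 and -0.26, a mean of -0.19 ± 0.052 (SD, n = 4; limma adjusted p = 0.0797). Tumour 2 was close to tumour 1 here, and all 4 tumours were below 0. Smarca4 and Smarcc1 encode subunits of the SWI/SNF chromatin remodelling complex. Smarca4 (21421402 to 21491438, 8 probes) read -0.23, -0.040, -0.14 and -0.33, and lies in the 2.32 Mb call of tumour 4. Smarcc1 (110042010 to 110132026, 13 probes) read -0.19, -0.063, -0.22 and -0.29. Both were below 0 in all 4 tumours and highest in tumour 2. Rad54l2, a helicase gene (106591849 to 106671625, 9 probes), read -0.18, 0.014, -0.16 and -0.37. Zbtb16, the gene of the transcription factor PLZF (48480158 to 48629804, 19 probes), read -0.18, 0.090, -0.13 and -0.19, with tumour 2 alone above 0.

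Of the growth signalling list, 18 of 18 genes were found and 17 had at least 2 probes. None passed the adjusted test. At an unadjusted p under 0.05, 8 of the 17 were lower, against 45.2% of all tested chromosome 9 genes. Below 0 in tumours 1, 3 and 4 were 16 of 18, against 89.3% of all tested chromosome 9 genes, and the median was -0.13. Map2k5, a kinase gene of the ERK5 pathway (63012486 to 63219636, 18 probes), read -0.24, -0.18, -0.16 and -0.22, a mean of -0.20 ± 0.034 (SD, n = 4; limma adjusted p = 0.0783). Its spread between tumours was the smallest of the 20 named genes. Map2k1, which encodes MEK1 of the ERK cascade (64033644 to 64095106, 9 probes), lies close to it and read -0.22, -0.0078, -0.13 and -0.27. Pik3cb, the gene of a catalytic subunit of PI3-kinase (98953023 to 99033197, 9 probes), read -0.22, -0.23, -0.15 and -0.34. Tgfbr2, a TGF-beta receptor gene (115998543 to 116082297, 9 probes), read -0.25, 0.10, -0.16 and -0.12. Fli1, an ETS transcription factor gene (32236504 to 32330234, 8 probes), read -0.28, 0.087, -0.19 and -0.23. Tgfbr2 and Fli1 were above 0 in tumour 2 and below 0 in the other 3.

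Of the cell cycle list, 11 of 12 genes were found and 10 had at least 2 probes. None passed the adjusted test. At an unadjusted p under 0.05, 6 of the 10 were lower, against 45.2% of all tested chromosome 9 genes. Below 0 in tumours 1, 3 and 4 were 11 of 11, against 89.3% of all tested chromosome 9 genes, and the median was -0.16. Tfdp2, which encodes a dimerization partner of E2F factors (96106946 to 96219229, 14 probes), read -0.20, -0.32, -0.11 and -0.36, a mean of -0.25 ± 0.11 (SD, n = 4; limma adjusted p = 0.0815). It had the lowest mean of the 20 named genes, with tumour 2 lower than tumours 1 and 3. Kif23, a kinesin gene of cytokinesis (61767613 to 61792196, 3 probes), read -0.32, -0.17, -0.16 and -0.32. Cep63, a centrosome gene (102492833 to 102527909, 4 probes), read -0.18, -0.34, -0.21 and -0.22. Zwilch, a kinetochore gene of the spindle checkpoint (63988998 to 64016498, 4 probes), read -0.24, -0.065, -0.15 and -0.28. Kif15, a spindle kinesin gene (122864159 to 122921865, 9 probes), read -0.092, 0.034, -0.14 and -0.21. These gene values are means of few probes and moved around the value of the whole chromosome in each tumour, with the widest range in tumour 2. No intensity or GC trend was removed from them. In tumour 2 the GC-poor class of chromosome 9 probes read -0.13 and the GC-rich class 0.12. The part of probe GC and intensity in the tumour 2 values of single genes was not tested.

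**Figure D5:**
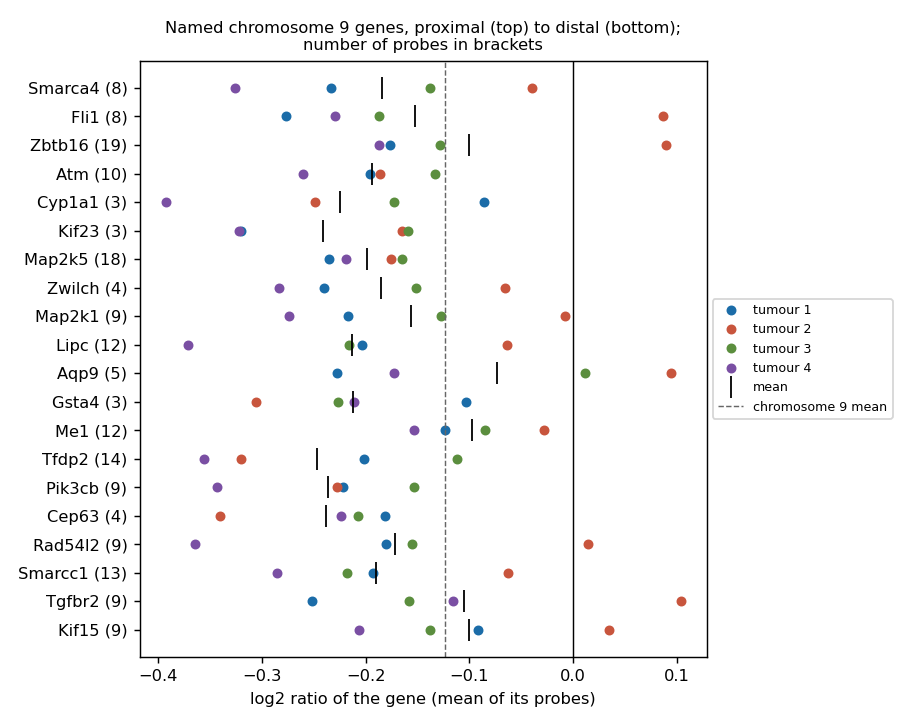
Log2 ratio (horizontal axis) of the 20 named chromosome 9 genes, from proximal at the top to distal at the bottom, as the mean of the gene's probes (number in brackets); coloured points are the 4 tumours, black ticks their mean, and the dashed line the mean of the whole chromosome. Tumours 1 and 4 are below 0 at all 20 genes and tumour 3 at 19, while tumour 2 lies on both sides of 0.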

How the data were processed

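DNA of 4 tumours was hybridized with pooled spleen DNA on 1 two-colour Agilent array each. The deposited files came from Agilent Feature Extraction, version 12.0.1.1 per the file headers and 12.0.0 per the submitters' processing notes, with positions on mm9. Their processed intensities were background-subtracted and dye-normalized by that program, per the file headers. The deposited log10 ratio served only as a check of direction: at 99.7% or more of the spots it differed by at most 0.001 from the ratio of processed intensities.

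From these, the log2 ratio of Cy5 over Cy3 was taken per spot. Spots that the program marked as non-uniform or outlying were left out (5, 14, 5 and 9 on chromosome 9 in tumours 1 to 4), the 44 chromosome 9 probes spotted 5 times were averaged, and arrays were centred on the autosomal median. No loess or quantile step was applied. Means were tested with exact sign-flip permutation tests over 4 tumours. Bins of 5 Mb with at least 20 probes and genes with at least 2 probes were tested over all autosomes with limma 3.58.1 (R 4.3.3, lmFit and eBayes). The penalty of the segmentation was 3 times the noise variance times the log of the autosomal probe number. Trends used running medians over 50 classes or a linear model, with 101 neighbouring probes for regional GC. The bin fit and the segmentation were run on simulated data with independent noise and planted shifts larger than the chromosome 9 mean of any tumour. Those runs held no GC or intensity trend. They do not show how either method performs on a shift as small as that of chromosome 9. Python 3.11.15 was used with numpy 2.4.6, scipy 1.17.1 and numba 0.67.0. The number of arrays limits the precision.

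Samples were grouped by their labels. Of each gene list the 5 members with the most probes were named, ties by position. The chromosome, the lists and the settings were chosen with earlier results of these data known. Alternatives changed the trends, background correction, centring, flags, bin width, slide block, array weights, thresholds, signs and tumours used. A result on 1 short stretch of the chromosome is not reported here.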

Additional observations from a re-analysis of the deposited data

Results flagged for a closer look

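The difference between GC-rich and GC-poor probes of chromosome 9 was 0.24 in tumour 2, far from 0.037, 0.026 and 0.057 in tumours 1, 3 and 4. The gap from tumour 2 to the nearest of the others was 0.86 of the whole range over the 4 tumours, above Dixon's 95% critical value of 0.83. Of 33 chromosome 9 quantities examined this way it was the only one set apart, and chance sets apart about 1 in 20 groups. The array of tumour 2 also had the highest noise between neighbouring probes, an SD of 0.366 against 0.120, 0.145 and 0.153 in tumours 1, 3 and 4; its part in the difference was not tested.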

How the results depend on the processing

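The negative sign of the chromosome 9 mean was kept under every alternative tried, from -0.17 with normexp to -0.026 with the sign of tumour 4 turned. Turning the sign of a low tumour shrinks the shift by arithmetic. A limma fit over the 19 autosome means gave an adjusted p of 0.0953 as processed, 7.6e-08 with arrays centred on the mode (mean -0.14), 0.0159 with normexp (mean -0.17) and 0.163 with 3 trends removed in 1 model (mean -0.12). Limma draws the variance of a chromosome toward that of all 19 autosomes, so these p do not measure the spread of chromosome 9 alone. Centred on the mode, chromosome 9 read -0.18, -0.043, -0.15 and -0.20 (SD 0.071), with an exact sign-flip p of 0.13. Chromosome 9 minus the other autosomes stayed at -0.12 with that centring (exact sign-flip p = 0.25). Chromosome 9 minus chromosome 12 (0.00075) changed sign with the regional GC trend removed (-0.00016), with normexp (-0.00027) and without tumour 2, and ranged from -0.0092 to 0.0076 when tumours were left out in turn. Distal minus proximal (0.0064) changed sign with the regional GC trend removed (-0.00037), with 3 trends in 1 model (-0.0020) and without tumour 2, and ranged from -0.0080 to 0.019 when tumours were left out in turn. The mean share of genomes with 1 copy, 16.2%, was 4.02% with the sign of tumour 1 turned, 2.59% with that of tumour 4 turned, and 27.5% with the X difference as the step, which uses tumours 1 and 4 alone.

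The 14 chromosome 9 bins that limma called lower became 9 with the intensity trend removed (fitted without chromosomes 9, 12 and 15), 9 with 3 trends in 1 model, 9 with bin medians, 22 with normexp, 25 with centring on the mode, 25 with array weights, 1 without tumours 1 and 4, and 0 with the sign of tumour 1 or tumour 4 turned. They ranged from 1 to 25 when tumours were left out in turn. Of the chromosome 9 genes 0 passed. The count was 36 with the intensity trend removed, 237 with normexp and 97 among genes with at least 5 probes. It was 236 with the slide as a random block, 372 with array weights, and 0 to 375 when tumours were left out in turn. The slide correlation of the gene fit was negative, -0.34, which narrows the SE of the mean. Array weights gave tumour 2 the lowest weight, 0.23 for genes and 0.27 for bins, so they come close to leaving it out. The mean length called lost, 11.3%, was 75.0% at a threshold of 0.1, 49.98% with normexp, 17.3% with the penalty factor at 6, 3.89% with the intensity trend removed and 0.013% at a threshold of 0.3. It was 0% without tumour 4 and 15.1% without any of the other 3. The causes were not tested. The mean of chromosome 9 was -0.089 within the slide of tumours 1 and 2 and -0.16 within that of tumours 3 and 4. No paired analysis was possible because the tumours form 1 group, each tumour with reference DNA on its own array. The noise of array 2 (SD 0.366) limits what single probes and genes show there.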
